A study of Mus musculus with 4 samples.

Results

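The cytosolic ribosome is built from RNA and a set of proteins that are each encoded by their own gene, and those genes are described here in mouse microglia exposed to EGCG. Members were the protein-coding genes listed in both count tables whose symbol follows the Rpl and Rps naming of large and small subunit proteins, with Rps27a left out. This gave 83 of 22046 protein-coding genes, out of 54532 genes of any kind, 31 of the small subunit and 52 of the large subunit. Testing was limited to the 13811 protein-coding genes that reached 10 counts in total, and 82 members were among them. The remaining member, Rpl10l, had 0 counts in every library.

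The study compared primary microglia that received 1 µM EGCG, the main catechin of green tea, for 24 h with microglia that received the DMSO vehicle for the same time. Cells came from the cortex of male CD1 mouse pups in their first days of life. They were grown as mixed glia, with GM-CSF to expand the microglia, and the astrocyte layer was removed with trypsin. Both groups were then kept in a serum-free medium with IL-34, TGFβ2, GM-CSF and cholesterol. Poly-A RNA was sequenced in 4 libraries, 2 per group, which the labels call biological replicates. Values of the 4 libraries are always listed as Vehicle 1, EGCG 1, Vehicle 2 and EGCG 2, where the digit is the replicate. Deposited counts summed to 33805071, 34300679, 36307930 and 54970300. A count of 3, taken as the floor, was worth between 0.0544 and 0.0936 CPM (counts scaled to library size with TMM factors), and this floor covers counting error only.

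Ribosomal proteins are made in near-equal amounts, and most of their mRNAs begin with a run of pyrimidines, the 5′ TOP motif, through which mTORC1 and LARP1 set their translation. Because these mRNAs are short and abundant, the mouse genome carries many processed pseudogenes, which are copies of spliced mRNAs set back into other chromosomes. Some copies are almost identical to the gene they came from, so that a sequencing read can fit both.

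The ribosomal protein genes took up a similar share of each library. They held 2.65%, 2.81%, 2.90% and 2.89% of the protein-coding counts. The EGCG library was thus higher in replicate 1 and slightly lower in replicate 2, and the groups overlapped. The mean difference was 0.0704 percentage points with an SD of 0.127 over the replicates. In bulk RNA, a smaller number of cells and less RNA per cell cannot be told apart.

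Levels were compared between genes only as CPM per kilobase of the gene length given in the tables. The median of the tested members was 179 CPM per kilobase, with 205 for the small subunit and 151 for the large subunit. The highest mean levels were those of Rplp1, an acidic protein of the ribosomal stalk, at 1128 CPM per kilobase, Rps3a1 at 726 and Rpl41, which encodes a very small basic protein, at 690. The lowest were Rpl3l, the muscle form of Rpl3, at 0.166, Rpl36al at 0.518 and Rpl24 at 0.521. The levels of the tested genes thus ran from 0.166 to 1128 CPM per kilobase. The length used is that given for the gene, 499 bases for Rplp1 and 6270 for Rps15a, and may exceed that of the mRNA. These levels and the subunit medians therefore depend on the given lengths as well as on the counts.

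**Figure D1:**
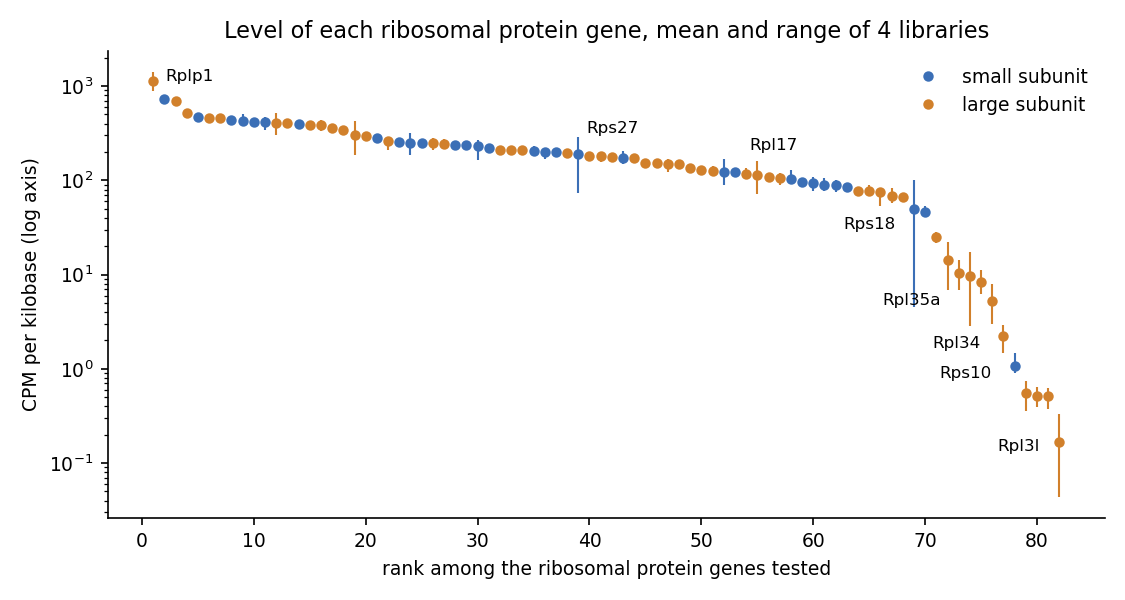
Level of the 82 ribosomal protein genes tested, ranked by mean CPM per kilobase on a log axis. Points are means and vertical lines run from the lowest to the highest of the 4 libraries; Rps18 and Rpl35a have long lines, and a tail of low genes ends at Rpl3l.

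Several of the low genes had a highly counted copy elsewhere in the genome. Copies were defined after the data were seen, as annotated transcripts with at least 90% identity to a member over at least 200 bases and over at least 50% of the copy. Of the 83 members, 76 had at least 1 copy. There were 999 copies, 977 of them annotated pseudogenes, and 171 had at least 100 counts over the 4 libraries. For 9 members the copies held over 50% of the joint counts. These were Rpl17, Rpl21, Rpl24, Rpl29, Rpl34, Rpl35a, Rpl36al, Rps10 and Rps18.

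Rps10, a small subunit protein near the mRNA entry, had 81, 108, 77 and 115 counts. The pseudogene Rps10-ps2 on chromosome 16 had 3271, 3196, 3778 and 5944 counts. It was 99.0% identical to Rps10 over 496 bases, with an identical stretch of 392 bases. Copies also held 99.2% of the joint counts of Rpl29, 97.6% of Rpl34 and 93.2% of Rpl24. Summed with copies, Rpl34 had 205 CPM or more in each library and Rpl29 had 63.4 CPM or more. Rpl24 with its copies had 10.2 CPM or less in each library, and Rpl36al with its copies had 1.97 CPM or less. Rpl24 and Rpl36al thus stayed low with copies added. How the deposited counts divided reads among such copies is not given in the sources used here, so the level of each of these genes alone is uncertain.

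The comparison of EGCG with Vehicle asks whether the flavanol altered the microglial transcriptome, and among the ribosomal protein genes Rpl17 was the gene that passed edgeR's test without a replicate term. By edgeR's quasi-likelihood test, 1 of 82 members had an unadjusted p under 0.05, against 16 of all 13811 genes tested (0.116%). Of the 16 genes, 4 (0.029% of those tested, Rpl17 among them) were higher and 12 were lower in EGCG. Neither the members nor any other gene passed at an adjusted p under 0.1 in this test. These calls changed with a replicate block. Across groups, libraries of a replicate share a number and a count table, and whether they share a culture is not stated. The chi-square per gene was 10.6 and 9.02 between groups within a replicate, and 234 and 233 between replicates within a group. A fit without the block leaves the difference between replicates in its error. With the block in edgeR, 5 of 82 members had an unadjusted p under 0.05, against 444 of all genes tested (3.21%). Rpl17 was then the 1 gene under the adjusted threshold (edgeR adjusted p = 0.0518). Without a block, DESeq2 gave 24 genes at an unadjusted p under 0.05 (0.174%) and 1 at an adjusted p under 0.1, and in both counts the 1 member was Rpl17. The edgeR count of 16 became 131 without EGCG replicate 2, 57 without Vehicle replicate 2 and 8 without EGCG replicate 1. On simulated counts with a difference between replicates, edgeR without a replicate term missed the changed genes at the adjusted threshold, while DESeq2 did not miss all of them. With a replicate term, both programs found most of the changed genes at that threshold. With that term 14 unchanged genes also passed in edgeR and 1 in DESeq2, against 0 in each program without it. The changed genes were set to differ by 1.5 on the log2 scale. Whether the deposited counts behave in this way was not tested.

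Outside Rpl17, the members lay close to 0. The median log2 fold change of EGCG over Vehicle was 0.06 for the members and 0.01 for all genes tested. Besides Rpl17, 76 of 81 tested members lay within 0.2 of 0 on the log2 scale, and 80 lay within 0.3, against 76.8% and 83.4% of all genes tested, which include genes of low count. The exception to the wider limit was Rpl3l, with 18, 8, 8 and 4 counts. Its log2 fold change was -1.28 with an SE of 0.997 (edgeR adjusted p = 1.00).

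The replicates differed in this median. In replicate 1 the median member was 0.14 higher in EGCG on the log2 scale, against 0.03 for all genes, and 75 of 82 members had higher values in EGCG, against 58.5% of all genes. In replicate 2 the median member was at -0.02, against 0.00 for all genes, and 35 of 82 had higher values, against 50.6% of all genes. EGCG was higher in both replicates for 32 of 82 members, or 39.0%, against 29.9% of all genes tested. With the 3 other scaling methods and with TMM factors computed without the members, the replicate 1 median stayed between 0.09 and 0.13, and the replicate 2 median stayed between -0.03 and -0.02. Small subunit genes had a median of 0.14 in replicate 1 and 0.00 in replicate 2, and large subunit genes had 0.14 and -0.04. Fibroblast markers, described below, had a median of -6.57 in replicate 1 and -0.01 in replicate 2. Whether this is tied to the member medians was not tested.

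**Figure D2:**
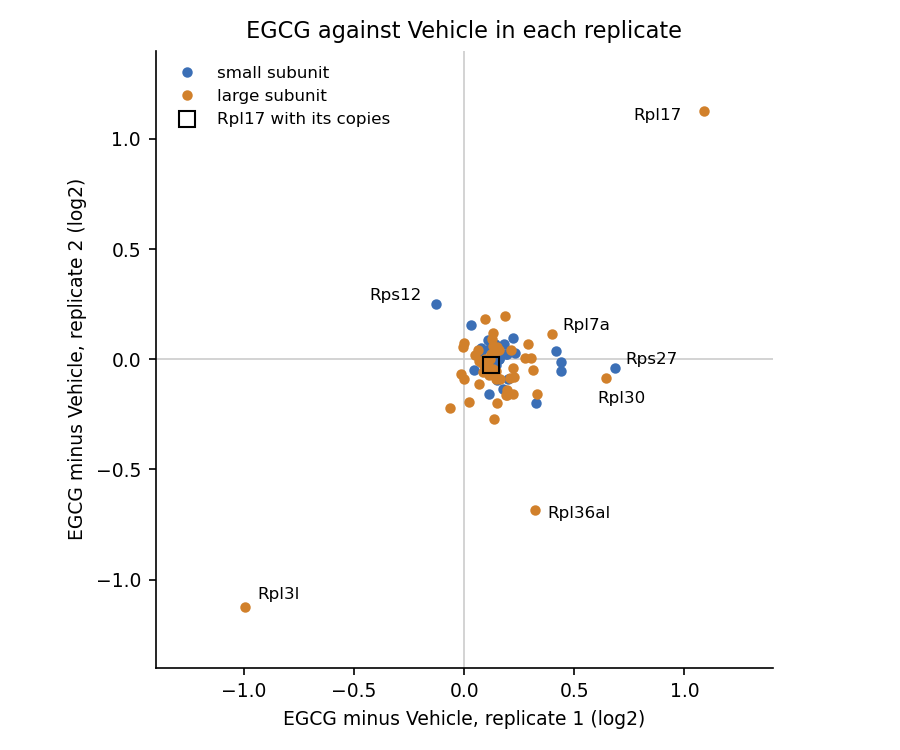
Log2 difference of EGCG minus Vehicle in replicate 1 (horizontal) and replicate 2 (vertical) for the 82 ribosomal protein genes tested. Rpl17 without copies lies at 1.09 and 1.13, Rpl3l lies apart at the lower left, and the open square shows Rpl17 at 0.12 and -0.03 with the counts of its copies added.

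Rpl17 (ENSMUSG00000062328) encodes a protein at the exit of the peptide tunnel and lies on the forward strand of GRCm38.p6, chr18:75000477-75003381. It had 1812, 3768, 2106 and 6917 counts. These counts were 55.2, 118, 57.5 and 125 CPM. Both EGCG libraries were above both Vehicle libraries, and libraries of a group lay close together, at 56.3 ± 1.58 CPM for Vehicle and 121 ± 5.50 CPM for EGCG (SD, n = 2). On the log2 scale EGCG was above Vehicle by 1.09 (replicate 1) and 1.13 (replicate 2). The edgeR log2 fold change was 1.11 with an SE of 0.123 (adjusted p = 1.00 by Benjamini-Hochberg over all genes tested). DESeq2 gave 1.10 with an SE of 0.190 and an adjusted p of 9.61e-05, and over all alternatives the adjusted p ran from 2.52e-23 to 1.00.

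The pseudogene Rpl17-ps10 had the opposite pattern. It lies on the reverse strand at chr7:72648757-72649311 and is 99.3% identical to Rpl17 over 555 bases, with 4 mismatches and an identical stretch of 403 bases. Its counts were 5187, 3575, 6119 and 4283. These were 158, 112, 167 and 77.6 CPM, so that both EGCG libraries were below both Vehicle libraries. Tested among genes of all biotypes, its log2 fold change was -0.79 with an SE of 0.214 (edgeR adjusted p = 1.00). It was under 0.05 before adjustment, as were 35 of the 17967 genes of that fit (0.195%), with Rpl17 as the 1 member among them.

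Other Rpl17 pseudogenes divided the counts in another way. Rpl17-ps3 at chr12:67510756-67511311 had 66.4, 79.4, 159 and 173 CPM. Rpl17-ps5 at chr5:22612628-22613182 had 60.5, 63.3, 4.12 and 4.48 CPM. Each was 99.6% identical to Rpl17 with 2 mismatches, and their larger differences lay between replicates, in opposite directions. With EGCG, Rpl17-ps3 was higher by 0.26 and 0.13 on the log2 scale and Rpl17-ps5 by 0.07 and 0.12, and neither passed the test. Of the 11 annotated Rpl17 pseudogenes, 5 had at most 4 counts in any library, namely Rpl17-ps1, Rpl17-ps2, Rpl17-ps6, Rpl17-ps7 and Rpl17-ps11, and Rpl17-ps4, Rpl17-ps8 and Rpl17-ps9 stayed under 1.4 CPM.

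Summed with all of its 55 copies, Rpl17 had 349, 379, 389 and 382 CPM. The EGCG library was higher in replicate 1 and lower in replicate 2, and the groups overlapped. The edgeR log2 fold change of the sum was 0.04 with an SE of 0.152, and with the annotated Rpl17 pseudogenes alone it was 0.05 with an SE of 0.156. Rpl17 made up 15.8%, 31.0%, 14.8% and 32.8% of the sum, and Rpl17-ps10 made up 45.3%, 29.4%, 42.9% and 20.3%. The share of Rpl17 was thus higher, and that of Rpl17-ps10 lower, in both EGCG libraries. No difference was detected in the sum. Whether transcription of either locus changed, or how reads were assigned, was not tested, and the Rpl17 call is uncertain.

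**Figure D3:**
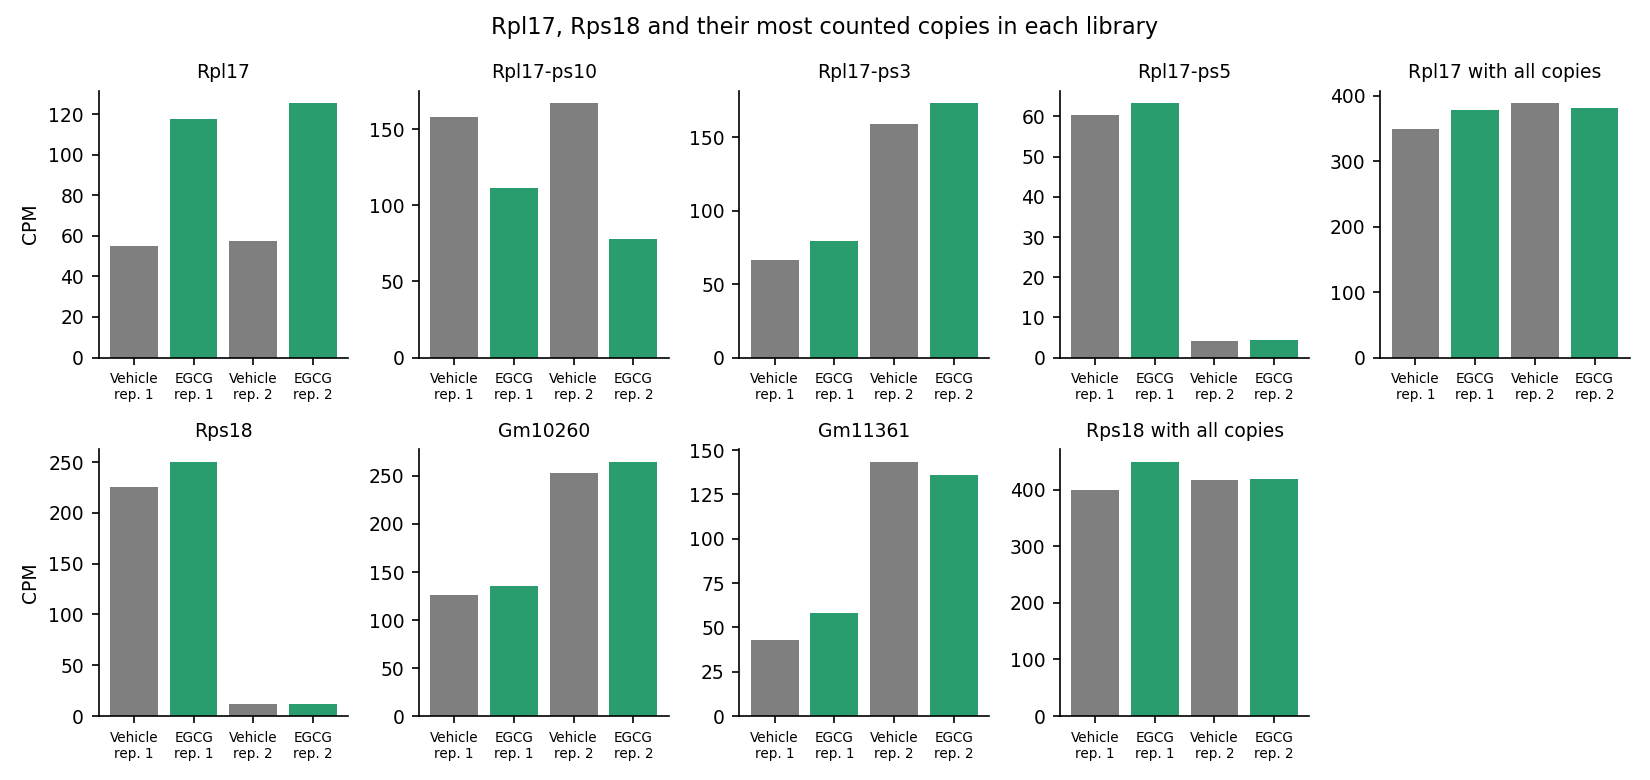
CPM in each of the 4 libraries for Rpl17 and its 3 most counted copies (top) and for Rps18 and its 2 most counted copies (bottom), with the sum over all copies at the right; grey bars are Vehicle and green bars EGCG. Rpl17 and Rpl17-ps10 move in opposite directions with EGCG, Rps18 and its copies move in opposite directions between replicates, and both sums lie within a narrow range.

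Genes within 10 kb of Rpl17 were looked at as well. The next gene on the same strand, BC031181 at chr18:75005900-75009933, had 61.1, 64.4, 55.4 and 62.6 CPM. With EGCG it was higher in both replicates, by less than Rpl17. Of the snoRNA genes within Rpl17, Gm23301 had 10, 19, 8 and 19 counts, higher with EGCG by 0.86 and 0.55 on the log2 scale. Gm26202 and Snord58b had at most 4 counts in a library.

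With copies added to every member, 0 of 82 members had an unadjusted p under 0.05 by edgeR, against 15 of 13798 genes tested (0.109%), and 0 genes passed at an adjusted p under 0.1. These sums were fitted with edgeR alone. The members' median log2 fold change was 0.07 and 33 of 82 were higher in EGCG in both replicates, against 29.9% of all genes in that fit. Rpl7a, a large subunit protein, had the highest log2 fold change after Rpl17, at 0.26 with an SE of 0.146 (edgeR adjusted p = 1.00). Its levels were 121, 159, 126 and 137 CPM, and the groups did not overlap. With its 81 copies the value became 0.15, the levels were 176, 218, 183 and 180 CPM, and the groups overlapped.

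The largest gaps between the replicates were those of Rpl36al, Rpl30 and Rps27. Rpl30 differed by 0.64 in replicate 1 and by -0.08 in replicate 2, and Rps27 by 0.69 and -0.04. Rpl36al, at 21 to 31 counts in a library, differed by 0.32 and -0.68. For Rpl30, whose protein lies at a bridge between the subunits, Vehicle replicate 1 stood alone at 162 CPM, with 253, 248 and 234 CPM in the others. Its main copy, Gm12191, had 1989, 1208, 1594 and 2387 counts. The sum over Rpl30 and its copies was 243, 298, 297 and 285 CPM.

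Many ribosomal protein genes differed between the replicates. With treatment as a covariate, 39 of 82 members differed between replicate 2 and replicate 1 at an unadjusted p under 0.05, or 47.6%, which is near the 52.7% (7276 genes) of all genes tested. Such p-values compare 1 replicate with 1 other and do not measure the spread among replicates. Of the 39 members, 17 were higher and 22 were lower in replicate 2, against 27.3% higher and 25.4% lower of all genes tested. The median difference was 0.03 for members and 0.01 for all genes on the log2 scale, and both moved with the scaling, to -0.03 and -0.05 with upper-quartile factors and to 0.11 and 0.09 with total counts. It was 0.09 within the Vehicle libraries and -0.06 within the EGCG libraries.

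Rps18 (ENSMUSG00000008668), a protein of the small subunit head encoded on the reverse strand of chr17:33951999-33956001, differed most. It had 7412, 8020, 446 and 629 counts. Both libraries of replicate 1 were high and both of replicate 2 low, by a log2 difference of -4.34 (edgeR adjusted p = 8.19e-05). The copy Gm10260 at chr13:97760072-97760632, annotated as protein-coding, had 4124, 4344, 9284 and 14611 counts. The copy Gm11361 at chr13:28257528-28258134 had 1404, 1857, 5259 and 7517 counts. Both copies were thus higher in the libraries where Rps18 was low.

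The sum over Rps18 and its 13 copies was 399, 449, 417 and 419 CPM. On that sum the replicate difference was -0.02 with an SE of 0.062 (edgeR adjusted p = 0.814). Rps18 made up 56.6% and 55.7% of the sum in Vehicle and EGCG replicate 1, and 2.92% and 2.72% in replicate 2. The share followed the replicate in both groups.

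The base differences that set these loci apart were few, and short windows around them are shown because a read without such a base fits more than 1 locus. Against the GENCODE vM21 transcript of Rps18, Gm10260 had 5 substitutions over 545 aligned bases and Gm11361 had 4 over 540, and both shared A394C, with positions counted from the first base of the Rps18 transcript. Each window has 25 bases, 5′ to 3′, with the differing base in capitals.
Rps18 at 243: actcacggaggaTgaggtggagcga
Gm10260 at T243C: actcacggaggaCgaggtggagcga
Rps18 at 228: caagagggctggAgaactcacggag
Gm11361 at A228C: caagagggctggCgaactcacggag
Rps18 at 394: gaggacctggagAggctgaagaaaa
Gm10260 and Gm11361 at A394C: gaggacctggagCggctgaagaaaa

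Other members with large replicate differences behaved in several ways. Rpl35a, a large subunit protein, had 53.6, 61.2, 11.1 and 9.95 CPM. Its log2 difference of -2.45 became -1.57 with its 23 copies. Rps27, a small subunit protein, had 77.2, 124, 298 and 290 CPM. Its log2 difference of 1.58 became 1.02 once 10 copies were added, among them Rps27rt on chromosome 9, which is 100% identical over 341 bases. In both genes the libraries of replicate 1 and replicate 2 did not overlap, alone or with copies.

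Adding copies did not always bring the replicates together. Of the 75 tested members with a copy, the size of the replicate difference fell by over 0.1 on the log2 scale in 13 and grew by over 0.1 in 5. Rplp0 went from 0.74 to 0.33 and Rps12 from 0.74 to 0.62, while Rpl26 went from -0.11 to 0.34 and Rpl23 from -1.06 to -1.19. Rpl23 and its copy Gm9794 were both lower in replicate 2, with 689 and 764 CPM for Rpl23 in Vehicle and EGCG replicate 1 and 373 and 326 in replicate 2. Alone, 7 of 82 members differed by over 1 between replicates, and 6 did with copies, against 19.2% of all genes tested in both cases. With copies, 39 of 82 members again had an unadjusted p under 0.05 for the replicate difference, against 52.6% of all genes tested.

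**Figure D4:**
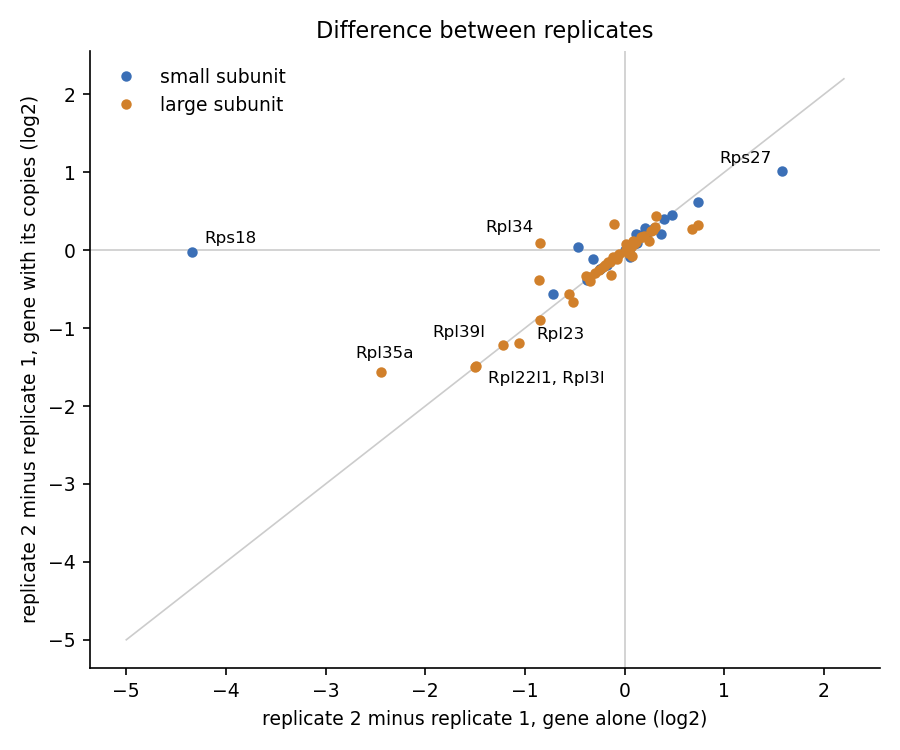
Log2 difference of replicate 2 minus replicate 1 for the 82 ribosomal protein genes tested, for the gene alone (horizontal) and with its copies added (vertical); the grey diagonal marks equal values. Rps18 moves from -4.34 to -0.02 and Rpl35a from -2.45 to -1.57, while Rpl22l1, Rpl39l, Rpl3l and Rpl23 stay near the diagonal.

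Several ribosomal proteins exist as a common form and a paralog that is used in particular tissues. Rpl22l1, the paralog of Rpl22, had 39.1, 44.5, 13.8 and 15.8 CPM. Both libraries of replicate 1 were higher, with a log2 replicate difference of -1.50 (edgeR adjusted p = 0.000152), and copies held 3.24% of its joint counts. Rpl22, which is known to restrain Rpl22l1, had 182, 203, 202 and 190 CPM, with a replicate difference of 0.03. By mean level, Rpl22 had 66.8 CPM per kilobase and Rpl22l1 had 14.2.

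Rpl39l, the testis-enriched form of Rpl39, was also lower in replicate 2, at 5.61, 6.55, 2.76 and 2.47 CPM (log2 difference -1.22, edgeR adjusted p = 0.00482). Rpl39 lay between 232 and 281 CPM. Neither of these genes had a copy under the rule of at least 200 aligned bases, which shorter copies cannot meet. Rpl7l1 had 25.2 CPM per kilobase against 245 for Rpl7, Rpl36al had 0.518 against 69.0 for Rpl36a, and Rps27l, a p53 target, had 89.6 against 189 for Rps27. Rpl3 had 110 CPM per kilobase, Rpl10 had 364 and Rps4x had 420. No paralog pair had a member with an unadjusted p under 0.05 for EGCG against Vehicle in edgeR without the replicate term.

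The stalk, which recruits the GTPase factors of translation, is made of Rplp0, Rplp1 and Rplp2. Rplp0 had 507, 506, 824 and 867 CPM, and Rplp1 had 637, 705, 464 and 447. Rplp0 was higher in replicate 2 and Rplp1 was lower, with log2 differences of 0.74 and -0.56 (edgeR adjusted p = 0.000673 and 0.00267). Rplp2 lay between 223 and 279 CPM, with a difference of -0.19 (edgeR adjusted p = 0.0490).

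Of the ribosomal protein genes that are not members here, Rps27a, which encodes ubiquitin fused to a small subunit protein, passed the test for EGCG. It had 237, 375, 164 and 318 CPM. Both EGCG libraries were above both Vehicle libraries, with a log2 fold change of 0.79 and an SE of 0.249 (edgeR adjusted p = 1.00, and under 0.05 before adjustment). With its 16 copies the values were 260, 391, 184 and 332 CPM, and the log2 fold change was 0.70 with an SE of 0.241, again under 0.05 before adjustment. For this gene the groups were thus apart with and without the copies. Its most counted copy, Gm8430, is 99.8% identical over 471 bases and had 17.6, 11.8, 13.2 and 7.58 CPM, lower with EGCG by 0.58 and 0.79 on the log2 scale. Gm8430 did not pass at an unadjusted p under 0.05, and the level of Rps27a alone is uncertain. Fau had a log2 fold change of 0.06 and Rack1, a scaffold on the small subunit, had 0.09, and neither passed.

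A feature that the naming rule did not use is the start of the mRNA. In the RefSeq promoter table for GRCm38.p6, 64 member symbols were matched. In mRNA sense, 13 of them (20.3%) began at the annotated start with a run of C and at least 4 further C or T bases. The share was 3.01% of all 27025 symbols. With the run allowed to begin within 5 bases of the annotated start, it was found for 29 members (45.3%) and for 21.2% of all symbols. A match describes the sequence and not a regulatory site. The windows below, of 25 bases from 8 bases before the start and with the run in capitals, show it in genes that moved between replicates and in genes that did not.
Rps18, chr17:33955649-33955673, reverse strand: cttccgctCTCTCTTCCacaggagg
Rpl35a, chr16:33056474-33056498, forward strand: ttgccttcCTCTTTCCgccatcttg
Rps27, chr3:90213632-90213656, reverse strand: ctttcgctCCTTTCCggcggtgacg
Rps6, chr4:86857351-86857375, reverse strand: agtcgggcCTCTTTTTCgtgacgcc
Rpl28, chr7:4792957-4792981, forward strand: tcgtgtctCTCTTTCCgtctccggc
The replicate differences of these genes were -4.34 for Rps18, -2.45 for Rpl35a, 1.58 for Rps27, 0.09 for Rps6 and 0.07 for Rpl28 on the log2 scale. Genes with the same kind of start thus had listed replicate differences in both directions and near 0, although with copies those of Rps18, Rpl35a and Rps27 were -0.02, -1.57 and 1.02.

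Lists of genes that make or use ribosomes were too short to expect calls for EGCG, given 0.116% of all genes tested. Of 77 tested genes of the mitochondrial ribosome, 0 had an unadjusted p under 0.05 by edgeR, and the same held for 59 genes of ribosome biogenesis, 40 translation factors, 20 genes of TOP mRNA control and 13 genes of p53 and its targets. DESeq2 also had 0 genes of these 5 lists at an unadjusted p under 0.05. Their median log2 fold changes were 0.04, 0.03, 0.03, 0.03 and 0.06. The smallest p in each list was that of Mrps35, Polr1d, Btf3, Tia1 and Zmat3, and the most abundant genes were Mrpl45, Ncl, Eef1a1, Cnbp and Cdkn1a. Tia1, which binds TOP mRNAs under stress, had 32.5, 28.7, 38.1 and 32.5 CPM (log2 fold change -0.21, edgeR adjusted p = 1.00). Eef1a1, the elongation factor that brings tRNA to the ribosome, had 5766, 5939, 6948 and 7215 CPM (log2 fold change 0.05, edgeR adjusted p = 1.00).

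Between replicates, the calls in these lists stood against 27.3% higher and 25.4% lower of all genes tested. Replicate 2 was lower for 27 and higher for 6 of the 77 mitochondrial ribosome genes at an unadjusted p under 0.05, and lower for 24 and higher for 8 of the 59 biogenesis genes. For the cytosolic ribosomal protein genes the calls were 22 lower and 17 higher. The medians were -0.11 for the mitochondrial ribosome, -0.14 for ribosome biogenesis and 0.03 for the cytosolic ribosomal protein genes on the log2 scale. The difference between the lists was not tested.

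Markers of the cells in the culture differed between the libraries as well. All 9 microglia markers differed between replicates at an unadjusted p under 0.05, against 52.7% of all genes tested, and replicate 2 was the higher for 5 and the lower for 4. They had summed levels of 5739, 6346, 8182 and 8030 CPM. C1qa was the most abundant, and 0 of the 9 passed for EGCG. The 8 fibroblast markers summed to 3085, 1966, 874 and 946 CPM, a sum carried by Fn1. Col1a1 had 3962, 4, 1344 and 2040 counts. In the same way Col1a2, Col3a1, Dcn and Lum had at most 6 counts in EGCG replicate 1 and at least 70 in each other library, while Pdgfrb had 30 counts there and Postn lay between 165 and 254 CPM.

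Endothelial markers summed to 275, 282, 95.8 and 106 CPM, led by Flt1, with Cldn5 at 0 in every library. Oligodendrocyte markers, led by Mbp, lay between 113 and 116 CPM, with Mog at 1 count in EGCG replicate 2 and 0 elsewhere. Astrocyte markers, led by Aldh1l1, summed to 13.9 to 19.8 CPM, and neuron markers, led by Snap25, to 18.9, 17.6, 1.20 and 1.76 CPM. Stmn2, a neuron marker, had 10, 1, 5 and 1 counts and an unadjusted p under 0.05 for EGCG by edgeR, but its EGCG counts lie under the floor and no fold is given. The part of other cell types in the differences among ribosomal protein genes was not tested.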

How the data were processed

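The 4 libraries of mouse microglia RNA were aligned with HISAT2 to GRCm38.p6, per the submitters' processing notes. Raw counts were deposited by the authors as 1 gene table for each replicate; the counting program and its handling of reads that fit several genes are not given in the sources used here. Tables were joined on the Ensembl identifier (54532 genes), without 697 and 329 separately assembled loci. The members and gene lists were chosen with earlier results of these data known. Named genes followed a rule of largest and smallest values, smallest p, paralog pairs, stalk genes and list leaders; other names, such as copies, were chosen after their values were seen.

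Counts were fitted in R 4.3.3 with edgeR 4.0.16 (TMM, quasi-likelihood F test, two-sided, treatment alone, or with replicate for the replicate difference) and, as an alternative, DESeq2 1.42.0, on all protein-coding genes with at least 10 summed counts, with Benjamini-Hochberg adjustment over all genes tested. Library log2 values used a prior count of 2, and the edgeR SE is the log2 fold change divided by the root of F. With 2 libraries against 2, a two-sided permutation p cannot fall below 0.333, so p-values rest on the models. Copies were found with BLAST 2.17.0 in GENCODE vM21 transcripts, where 81 of 83 members had the position given in the tables. Libraries of a group were not copies of each other, and the fits were tested on simulated data.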

Additional observations from a re-analysis of the deposited data

How the results depend on the processing

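Rpl17 passed an unadjusted p of 0.05 in 17 of 20 alternative settings. When any 1 library was left out, its log2 fold change ran from 1.03 to 1.15, with a highest p of 0.0119, but these 4 fits have 1 library in a group, so their p rests on the spread of the other group. The 3 settings in which it did not hold added counts of copies, with log2 fold changes of 0.0448 with copies, 0.0465 with copies and a replicate block, and 0.0488 with the annotated pseudogenes. By construction, these sums include Rpl17-ps10, which was lower in EGCG. Adding copies was chosen after seeing the data.

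The 16 genes at an unadjusted p under 0.05 became 444 with a replicate block, 153 with DESeq2 and a block, 78 with the likelihood ratio test, 38 with the newer dispersion method, 3 with 10 counts required in every library, 6 with filterByExpr, 35 with all biotypes, and 440 with copies and a block. Leaving out 1 library gave 8 to 131. The 0 genes at an adjusted p under 0.1 became 1 with a block (Rpl17, adjusted p = 0.0518 in a range of 2.52e-23 to 1.00 over its alternatives), 1 with DESeq2 (Rpl17), and 7 with DESeq2 and a block, and stayed at 0 when a library was left out.

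Across groups, libraries of a replicate share a number and a count table, and whether they share a culture is not stated. The chi-square per gene was 10.6 and 9.02 within replicates and 234 and 233 within groups. Across genes, the replicate difference in Vehicle and in EGCG had a correlation of 0.641, and 0.962 across members. With a replicate block in edgeR, 5 of 82 members had an unadjusted p under 0.05, against 3.21% of all genes tested: Rpl17, Rpl7a, Rpl22l1, Rpl27 and Rps27l, all higher. The count was 4 with DESeq2 and a block (Rps21, Rpl17, Rpl7a and Rpl27), against 153 of all 13811 genes tested. With copies it was 0, against 0.109% of all genes in that fit. With copies and a block it was 3 of 82 (Rpl22l1, Rpl27 and Rps27l), which is near the 3.19% of all genes in that fit. With the edgeR block, 2 of 77 mitochondrial ribosome genes, 1 of 40 translation factors, 1 of 9 microglia markers (Trem2) and Rps27a were higher. Lower were 2 of 20 genes of TOP mRNA control, 1 of 5 tested endothelial markers (Cdh5) and 1 of 5 tested neuron markers. The latter was Stmn2, whose EGCG counts lie under the floor. Among genes of all biotypes, 638 of 17967 (3.55%) had an unadjusted p under 0.05 by edgeR with the block. The pseudogenes Rpl17-ps10 and Gm8430, both lower with EGCG, and Rpl17-ps3, which was higher, were among them. So were copies of other genes, such as Rpl19-ps11, which was higher, and Gm5854, which was lower.

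For the 29 other named members, 217 of 261 settings gave the same result, 4 were stronger, all with the block, 0 were weaker and 40 were reversed. With copies, the log2 fold change of Rpl36al became 0.00691 and that of Rpl34 became 0.11, and neither passed. The other 38 reversals came from leaving out 1 library, after which log2 fold changes ran for Rpl22l1 from -0.74 to 1.13, Rpl27 from -0.0116 to 0.36, Rplp1 from -0.30 to 0.33, Rpl36al from -0.55 to 0.10, Rpl24 from -0.14 to 0.45, Rps10 from -0.13 to 0.53, Rpl21 from -0.52 to 0.25, Rpl34 from -0.61 to 0.36, Rpl30 from -0.0253 to 0.57, Rps27 from -0.62 to 1.41, Rplp0 from -0.42 to 0.43, Rps12 from -0.46 to 0.50, Rps18 from -3.39 to 3.43, Rpl35a from -1.70 to 1.68, Rpl10 from -0.0600 to 0.15, Rpl22 from -0.0382 to 0.10, Rpl39l from -0.76 to 0.71, Rpl7 from -0.13 to 0.20, Rpl7l1 from -0.24 to 0.13, Rpl36a from -0.24 to 0.25 and Rplp2 from -0.0137 to 0.24. None of these members had passed the test. Without a block, leaving out 1 library sets 1 replicate against both, so by construction these values carry the replicate difference and say little about EGCG.

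The mean EGCG difference in the member share of counts was 0.0672 to 0.109 percentage points in its alternatives, and it had opposite signs in the 2 replicates of the comparison reported. Limits are 2 libraries per group, a replicate difference in over 50% of genes, and counts that near-identical loci may share. The causes of other results that did not hold were not tested.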
